A study of Mus musculus with 12 samples.

Results

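The GIMAP genes (GTPases of the immunity-associated protein family) were followed through 12 bulk RNA-seq libraries of mouse Eµ-Myc lymphoma cells. The members were the 8 mouse genes Gimap1, Gimap3, Gimap4, Gimap5, Gimap6, Gimap7, Gimap8 and Gimap9, found by symbol among 56748 gene IDs. All 8 were among the 13535 genes tested. The family was chosen from the data, because Gimap4 was much higher in the lymph node libraries than in culture, so the values of Gimap4 against culture are a description and carry no test. Gimap6 and Gimap9 passed the filter on low counts through the culture libraries alone. Gimap1, Gimap3, Gimap4, Gimap5, Gimap7 and Gimap8 passed it only with the node libraries, where they are high, so for these 6 the changes against culture are given without p-values.

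The lymphoma cells are B cells of the Eµ-Myc model, in which the Myc oncogene is driven by the immunoglobulin heavy chain enhancer in the B cell lineage. A first group of 4 libraries came from cells taken directly from culture. A second group of 4, called lymphatic here, came from lymphoma cells sorted from lymph nodes of C57BL/6J mice on day 11 after tumor injection, after spread through lymphatic vessels. The last group of 4, called hematogenous, came from lymph node cells sorted on day 18, after spread through the blood. All 3 groups carry the Myc transgene. The labels name a single lymphoma line and a single mouse strain, give no sort marker, and give lymph node as tissue even for the culture group. They do not say whether the replicates are separate cultures or animals, so each p-value here rests on a spread between libraries that may be technical. Route and day change together and cannot be told apart.

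GIMAP proteins are GTPases related to the septin and dynamin group, and many sit on membranes of lymphocyte organelles such as lysosomes, mitochondria and the endoplasmic reticulum. They are best known for controlling how long mature T and B cells survive, and they lie side by side in a single gene cluster. Resting T cells are a rich source of their transcripts, and several members are also used by mature B cells.

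The promoters below belong to the members with the most unlike behaviour in these libraries. Gimap4 and Gimap3 were nearly absent from culture and present in the nodes, whereas Gimap6 and Gimap9 were present throughout. Each sequence runs from 250 bases before to 50 bases after the RefSeq start, in GRCm38.p6, 5′ to 3′ on the strand of the gene. Capitals mark every match, on either strand, to the RUNX motif TGTGGT, the ETS motif GGAAGT, the GAS motif TTCNNNGAA bound by STAT factors, and the ISRE core GAAANNGAA bound by interferon regulatory factors.
Gimap4, chr6:48684328-48684627, plus strand: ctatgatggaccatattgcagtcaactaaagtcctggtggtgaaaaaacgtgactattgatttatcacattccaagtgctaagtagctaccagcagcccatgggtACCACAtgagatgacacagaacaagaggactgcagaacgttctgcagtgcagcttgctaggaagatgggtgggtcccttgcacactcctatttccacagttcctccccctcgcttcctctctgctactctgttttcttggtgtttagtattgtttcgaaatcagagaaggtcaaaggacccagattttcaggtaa
Gimap3, chr6:48770802-48771101, minus strand: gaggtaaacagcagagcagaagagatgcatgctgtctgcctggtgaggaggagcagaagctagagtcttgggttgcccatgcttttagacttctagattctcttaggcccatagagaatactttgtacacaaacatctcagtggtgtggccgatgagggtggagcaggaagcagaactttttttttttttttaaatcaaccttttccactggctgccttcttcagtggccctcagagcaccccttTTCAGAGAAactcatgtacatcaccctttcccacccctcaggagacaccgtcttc
Gimap6, chr6:48708195-48708494, minus strand: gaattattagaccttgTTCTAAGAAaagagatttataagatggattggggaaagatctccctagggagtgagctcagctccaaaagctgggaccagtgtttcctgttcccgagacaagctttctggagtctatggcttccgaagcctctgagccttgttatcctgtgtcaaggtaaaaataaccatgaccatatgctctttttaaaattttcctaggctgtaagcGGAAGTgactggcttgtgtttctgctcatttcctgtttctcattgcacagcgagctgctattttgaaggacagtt
Gimap9, chr6:48675885-48676184, plus strand: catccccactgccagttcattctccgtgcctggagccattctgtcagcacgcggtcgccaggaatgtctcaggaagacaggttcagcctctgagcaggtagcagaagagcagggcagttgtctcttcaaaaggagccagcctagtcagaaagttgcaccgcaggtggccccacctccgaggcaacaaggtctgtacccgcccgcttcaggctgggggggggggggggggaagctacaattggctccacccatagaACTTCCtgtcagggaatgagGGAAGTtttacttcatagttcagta
The Gimap4 window held a RUNX match and the Gimap3 window a GAS match that runs across the start. The last 30 bases of the Gimap4 window were not found in the GENCODE M21 transcripts of Gimap4. The start positions themselves were not compared, so the reason is not known. The Gimap6 window held an ETS and a GAS match, and the Gimap9 window held ETS matches only. Over the 9 RefSeq windows of the 8 members (Gimap8 has 2), RUNX letters were found in 3, compared with 16.8% of all 32851 mouse windows of this length. ETS letters were found in 4 of the 9, compared with 23.8% of all windows. GAS letters were found in 4 of the 9, in Gimap8, Gimap6, Gimap7 and Gimap3, compared with 8.30% of all windows. The ISRE core was found in none of the 9, and in 8.56% of all windows. The E-box CACGTG, a MYC motif, was found in 0 of the 9 and in 7.15% of all windows, and TATAAA was found in 1, that of Gimap6, and in 13.6% of all windows. A match is a string of letters and not a bound site, the motifs were chosen after the sequences were seen, and each window depends on the start that RefSeq lists.

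Each library held between 5286775 and 25302016 counts assigned to genes. Levels are given as CPM, counts scaled to the assigned total of each library after TMM normalization. In culture, 3 counts, the number that a count of 0 still allows, were worth 0.233 to 0.520 CPM depending on the library, so values below that level are at the limit of detection. Myc passed no test, with a mean of 597 CPM in culture, 576 after lymphatic and 637 after hematogenous spread. B cell markers were abundant, summing to 5600 to 5950 CPM in culture, 5687 to 6652 CPM with lymphatic spread and 7148 to 7695 CPM with hematogenous spread, as the label B cell says. Changes are log2 ratios from edgeR's quasi-likelihood test with an approximate SE, and p-values were adjusted by Benjamini-Hochberg over all 13535 genes.

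Gimap1, needed for the survival of mature B and T cells, was close to the limit of detection in culture and at a few CPM in both kinds of node library. Its level was 0.155, 0, 0 and 0.230 CPM in culture 1 to 4. It was 1.69, 2.23, 3.15 and 7.07 CPM in lymphatic 1 to 4, and 2.56, 5.46, 2.25 and 3.03 CPM in hematogenous 1 to 4. Every node library lay above every culture library, and the node groups overlapped. The change was 4.91 ± 0.73 (SE, n = 4 and 4) in lymphatic against culture, and 4.29 without lymphatic 4. In hematogenous against culture it was 4.83 ± 0.75. Between the routes it was 0.08 ± 0.45, with an adjusted p of 0.923 in edgeR, and it was -0.53 without lymphatic 4. Culture held 4 counts of Gimap1 in all, so the ratio of summed counts, 32.1 for lymphatic against culture, had a 95% counting interval of 12.4 to 119.

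Gimap5, a lysosomal member without which naive T cells die early, was low in every group and did not pass between the routes. Its level was 0.466, 1.21, 1.61 and 0.345 CPM in culture 1 to 4, 1.22, 1.71, 2.05 and 4.04 CPM in lymphatic 1 to 4, and 1.60, 3.19, 2.54 and 0.948 CPM in hematogenous 1 to 4. The groups overlapped in all 3 comparisons. The change was 1.36 ± 0.53 in lymphatic against culture and 1.28 ± 0.54 in hematogenous against culture. Both are given without a test. Without culture 3, the culture library with the most Gimap5, they were 1.86 and 1.78. The lymphatic value was 1.56 without lymphatic 1, and the hematogenous value was 1.31 without lymphatic 4. Between the routes the change was 0.08 ± 0.47 (edgeR adjusted p = 0.927).

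Gimap3, the mouse relative of Gimap5 that sits on mitochondria and the endoplasmic reticulum, was the second most changed member after Gimap4 by its fitted value in lymphatic libraries. It had 0, 0, 0 and 0.345 CPM in culture 1 to 4. It had 4.66, 8.43, 15.3 and 17.1 CPM in lymphatic 1 to 4, and 2.89, 4.87, 4.20 and 1.14 CPM in hematogenous 1 to 4. All node libraries lay above culture, and the routes overlapped because lymphatic 1 was below hematogenous 2. Only 3 counts were seen in culture, all in culture 4, so the ratios of summed counts are loose: 135 (95% counting interval 46.1 to 657) for lymphatic against culture and 43.8 (14.7 to 215) for hematogenous against culture. The fitted changes, 6.94 ± 0.79 and 5.20 ± 0.86, depend on the count added to zeros and are no bounds. Between the routes Gimap3 was higher in lymphatic libraries by 1.73 ± 0.47 (edgeR adjusted p = 0.0172), a ratio of summed counts of 3.08 (2.58 to 3.71). Without hematogenous 1 that difference was 1.65 and no longer passed (adjusted p = 0.0620).

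Gimap4, which in T cells speeds death once apoptosis has been triggered, had 2 counts in all of culture. Its level was 0.155, 0, 0 and 0 CPM in culture 1 to 4, 5.27, 11.9, 13.2 and 15.8 CPM in lymphatic 1 to 4, and 1.92, 4.62, 2.25 and 3.60 CPM in hematogenous 1 to 4. None of the 3 groups overlapped: the lowest lymphatic library was above the highest hematogenous library. As a description, its summed counts were 215 times the culture level in lymphatic libraries (95% counting interval 59.2 to 1775) and 55.6 times in hematogenous libraries (15.1 to 464). The comparison of the routes was not used to choose the family, although it shares the lymphatic libraries. There Gimap4 was higher in lymphatic libraries by 1.91 ± 0.38 (edgeR adjusted p = 0.00292), a ratio of summed counts of 3.86 (3.19 to 4.71).

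Gimap6, which binds the ATG8 protein GABARAPL2 and takes part in autophagy, was present in every library. Its level was 31.1, 31.9, 32.4 and 28.4 CPM in culture 1 to 4, 38.3, 44.5, 38.6 and 46.0 CPM in lymphatic 1 to 4, and 30.9, 37.1, 40.7 and 38.7 CPM in hematogenous 1 to 4. All lymphatic libraries lay above culture, whereas hematogenous 1 fell within the culture range. The difference from culture was small: 0.44 ± 0.12 in lymphatic libraries (edgeR adjusted p = 0.0157) and 0.25 ± 0.12 in hematogenous libraries (edgeR adjusted p = 0.152). The lymphatic call was lost without culture 4 (0.40, adjusted p = 0.0563) and with no filter on low counts (adjusted p = 0.0615). Between the routes the change was 0.19 ± 0.12 (edgeR adjusted p = 0.274).

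Gimap9 was the other member present in culture, and it did not pass any test. Its level was 22.4, 22.9, 23.5 and 20.3 CPM in culture 1 to 4, 16.3, 19.0, 17.7 and 28.8 CPM in lymphatic 1 to 4, and 21.3, 23.7, 24.6 and 22.2 CPM in hematogenous 1 to 4. Lymphatic 1 to 3 lay below every culture library and lymphatic 4 lay above them all. The change was -0.12 ± 0.16 in lymphatic against culture (edgeR adjusted p = 0.630), 0.04 ± 0.17 in hematogenous against culture (edgeR adjusted p = 0.883) and -0.17 ± 0.17 between the routes (edgeR adjusted p = 0.495). Without lymphatic 4 Gimap9 was lower in lymphatic libraries than in culture, at -0.34 (adjusted p = 0.0270), and lower than in hematogenous libraries, at -0.38 (adjusted p = 0.0159).

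Gimap8, a large member that carries several GTPase domains, was near the limit of detection in culture. Its level was 0.155, 0.520, 0.214 and 0 CPM in culture 1 to 4, 4.32, 8.40, 8.66 and 7.74 CPM in lymphatic 1 to 4, and 1.12, 3.70, 3.71 and 3.22 CPM in hematogenous 1 to 4. As for Gimap4, the 3 groups did not overlap. The change against culture, where 7 counts were seen in all, was 5.16 ± 0.56 in lymphatic libraries and 3.84 ± 0.60 in hematogenous libraries. It was higher in lymphatic than in hematogenous libraries by 1.32 ± 0.39 (edgeR adjusted p = 0.0251), a ratio of summed counts of 2.62 (95% counting interval 2.13 to 3.24). That call was lost without lymphatic 3 (1.23, adjusted p = 0.0524), without hematogenous 1 (1.01, adjusted p = 0.0708) and without hematogenous 4 (1.36, adjusted p = 0.0519).

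Gimap7, a GTPase that becomes active as a dimer, was low but separated the node libraries from culture. Its level was 0.311, 0.520, 0.107 and 0.345 CPM in culture 1 to 4, 0.810, 1.43, 2.44 and 3.31 CPM in lymphatic 1 to 4, and 2.16, 2.61, 2.15 and 2.28 CPM in hematogenous 1 to 4. The hematogenous libraries were close together and lay inside the wide lymphatic range. The change was 2.67 ± 0.50 in lymphatic against culture, 2.88 ± 0.51 in hematogenous against culture and -0.21 ± 0.38 between the routes (edgeR adjusted p = 0.734).

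**Figure D1:**
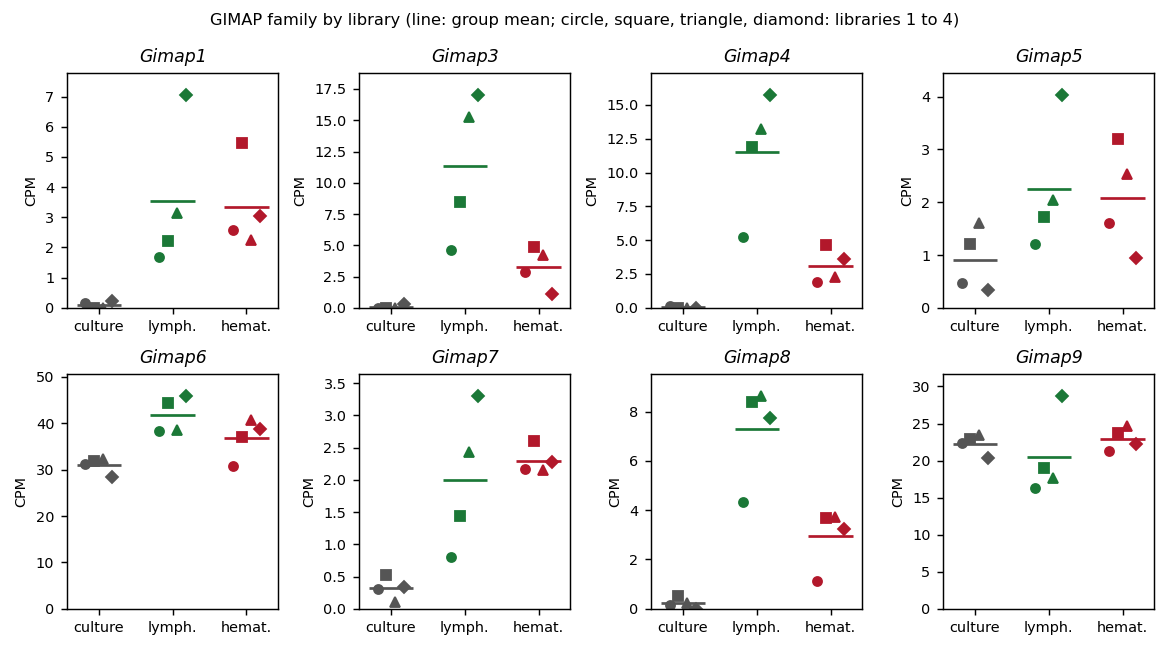
Level of each GIMAP gene in CPM (vertical axis, starting at 0, a scale of its own per gene) in the 4 culture, 4 lymphatic and 4 hematogenous libraries. Points are libraries and lines are group means; Gimap6 and Gimap9 are well above 0 in culture, and Gimap4 and Gimap8 show 3 groups without overlap.

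By their level in culture, the members were those already present there (Gimap6 and Gimap9), those near the limit of detection there (Gimap1, Gimap3, Gimap4, Gimap7 and Gimap8) and Gimap5 between them. Gimap6 and Gimap9 made up 96.0% to 97.7% of the summed GIMAP level in culture, in CPM not corrected for length. Their share was 55.7% to 75.2% in lymphatic libraries and 71.3% to 81.1% in hematogenous libraries, because the other members added to the sum. The summed level of the family was 49.97 to 57.8 CPM in culture, 72.5 to 129.8 CPM with lymphatic spread and 64.4 to 85.2 CPM with hematogenous spread.

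Levels of different genes were compared per kilobase of exonic length. In culture Gimap9 had 13.6 ± 0.83 CPM per kilobase (SD, n = 4) and Gimap6 had 8.85 ± 0.51, with no overlap between them, and all other members were at or below 0.219. In lymphatic libraries Gimap9 (12.4 ± 3.45 CPM per kilobase) and Gimap6 (12.0 ± 1.13) did not differ beyond their spread. Gimap4 came next at 6.27 ± 2.44, then Gimap3 at 4.41 ± 2.25, which overlapped it. Gimap8 followed at 1.97 ± 0.54, and Gimap1, Gimap7 and Gimap5 were at 1.15 or less, also as mean CPM per kilobase. In hematogenous libraries Gimap9 was at 13.98 ± 0.90 CPM per kilobase and Gimap6 at 10.5 ± 1.22. The remaining members lay between 0.499 for Gimap5 and 1.69 for Gimap4, and neighbours in that order overlapped.

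Against culture, 6 of the 8 members, Gimap4 included, were higher in every lymphatic library, without overlap. This was so for 14.6% of tested genes. In hematogenous libraries 5 of 8, Gimap4 included, were higher than culture without overlap, compared with 21.9% of genes. Calls against culture are counted only for Gimap6 and Gimap9, since the other members carry no test there. Gimap6 was called higher in lymphatic but not in hematogenous libraries, and Gimap9 was called in neither. Over all tested genes 13.4% were called higher and 13% lower in lymphatic libraries, and 13.9% higher and 13.9% lower in hematogenous libraries. The median change of the members was 3.79 for lymphatic and 3.36 for hematogenous libraries, beside 0.04 and 0.00 over all tested genes. Nothing is drawn from these shares, since the family was picked from this contrast and most members reached the tested set through the node libraries, where they are high. Between the routes 3 of 8 members, Gimap3, Gimap4 and Gimap8, were called higher in lymphatic libraries and none lower, beside 11.4% and 10.9% of tested genes. Gimap4 and Gimap8 showed no overlap between the routes, which held for 11.5% of genes. The median of the 8 members between the routes was 0.13, near the 0.03 of all genes. The comparisons with culture share the culture libraries, so the side-by-side values are not independent.

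**Figure D2:**
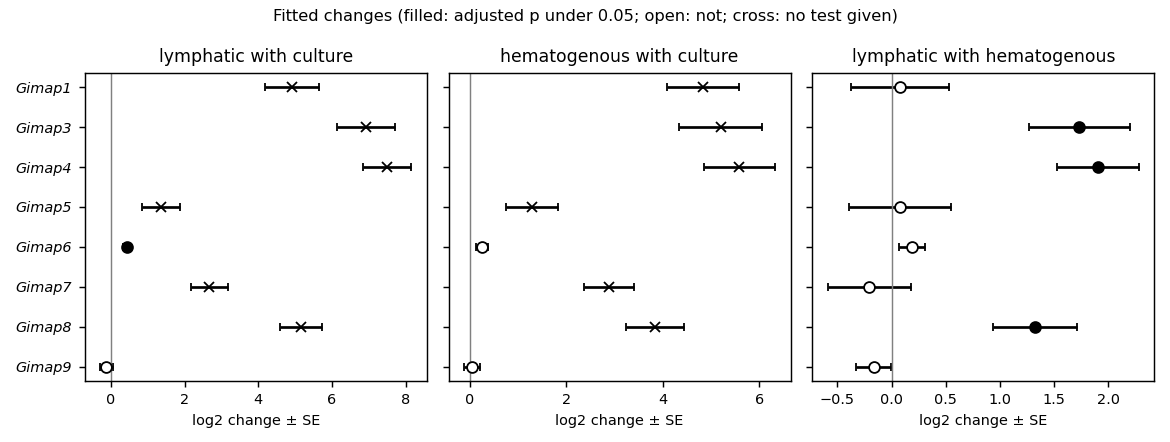
Fitted log2 change with its SE (horizontal axis, scaled separately in each panel) for the 8 GIMAP genes in the 3 comparisons. Filled points passed the threshold, open points did not, and crosses are values against culture given without a test; between the routes Gimap3, Gimap4 and Gimap8 are filled.

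Transcripts of the T cell receptor complex were higher in the node libraries than in culture and higher in lymphatic than in hematogenous libraries, as were Gimap3, Gimap4 and Gimap8. The other members passed no test between the routes. The T cell receptor complex genes Trac, Trbc1, Trbc2, Cd3d, Cd3e and Cd3g mark T cells, and B cells do not make them. Their summed level was 0 to 0.544 CPM in culture, where Trbc1, Trbc2 and Cd3d had no counts. It was 10.9, 18.6, 21.2 and 66.1 CPM in lymphatic 1 to 4, and 3.53, 7.65, 5.08 and 3.22 CPM in hematogenous 1 to 4. All lymphatic libraries lay above all hematogenous libraries. Trbc2, a constant region of the receptor beta chain, was at 2.90, 4.62, 5.98 and 18.8 CPM in lymphatic 1 to 4 and at 1.36, 2.18, 0.977 and 0.190 CPM in hematogenous 1 to 4. Cd3g, a signalling subunit, was at 1.49, 3.30, 3.70 and 10.5 CPM in lymphatic 1 to 4 and at 0.160, 1.34, 0.488 and 0.948 CPM in hematogenous 1 to 4. Neither gene overlapped between the routes. All 6 genes were called higher in lymphatic libraries than in culture, beside 13.4% of tested genes, and than in hematogenous libraries, beside 11.4%. In hematogenous libraries 5 of 6 were called higher than in culture, beside 13.9%, the exception being Cd3e at 2.53 ± 0.95. Nothing is drawn from these calls, since the genes reached the tested set through the node libraries, where they are high. The part of T cells in the GIMAP values was not tested. In bulk libraries, fewer cells of a type and less RNA per cell cannot be told apart.

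Of 20 other T cell markers, 18 were tested, and 17 were called higher in lymphatic libraries and 12 in hematogenous libraries than in culture. Between the routes 10 were called higher and 1 lower in lymphatic libraries. Over all tested genes, 13.4% were called higher in lymphatic and 13.9% in hematogenous libraries than in culture. Between the routes 11.4% were called higher and 10.9% lower. Tested markers with no counts in culture reached the tested set through the node libraries. The sum of the 20 was 88.9 to 101.4 CPM in culture, 199 to 285 CPM with lymphatic spread and 216 to 341 CPM with hematogenous spread, with Cd4, Cd8a, Cd5, Zap70 and Themis among those at 0 counts in culture. The ranges of this sum overlapped between the routes, unlike those of the receptor complex. Il7r, the interleukin 7 receptor, Cd2 and the kinase Lck were present in culture, at 48.3, 34.1 and 6.01 CPM (means of 4). Il7r was the marker called lower in lymphatic than in hematogenous libraries (-0.94 ± 0.27, edgeR adjusted p = 0.0259).

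The GIMAP counts were set against the receptor complex counts of the same library, a ratio that needs no scaling between libraries. Per 100 receptor complex counts, Gimap4 had 48.4, 63.8, 62.2 and 23.9 counts in lymphatic libraries 1 to 4 and 54.5, 60.4, 44.2 and 112 in hematogenous 1 to 4. The routes overlapped, with a mean log2 difference, lymphatic minus hematogenous, of -0.46 (exact permutation test, two-sided, p = 0.457, adjusted over the 8 ratios 0.457). Gimap3 had 42.9, 45.4, 71.9 and 25.8 counts per 100 in lymphatic and 81.8, 63.7, 82.7 and 35.3 in hematogenous libraries. Its difference was -0.54 (exact permutation p = 0.314, adjusted 0.359). Gimap8 had 39.8, 45.2, 40.7 and 11.7 counts per 100 in lymphatic and 31.8, 48.4, 73.1 and 100 in hematogenous libraries, a difference of -0.94 (exact permutation p = 0.200, adjusted 0.267). For these 3 genes the routes overlapped in this ratio, which does not show that they were alike.

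The other 5 members had more counts per receptor complex count in every hematogenous library than in any lymphatic library. Gimap1 had 15.5, 12.0, 14.8 and 10.7 counts per 100 in lymphatic libraries 1 to 4 and 72.7, 71.4, 44.2 and 94.1 in hematogenous 1 to 4. Gimap7 had 7.45, 7.71, 11.5 and 5.01 in lymphatic and 61.4, 34.1, 42.3 and 70.6 in hematogenous libraries. Gimap5 ranged from 6.11 to 11.2 in lymphatic and from 29.4 to 50 in hematogenous libraries. These 5 members differed by only -0.21 to 0.19 between the routes in the fit, while the receptor complex in the denominator was higher in every lymphatic library. The ratio differences therefore restate the receptor complex difference with its sign turned and are no separate result. They were -2.37 for Gimap1, -2.71 for Gimap7, -2.23 for Gimap5, -2.13 for Gimap6 and -2.52 for Gimap9. Each had an exact permutation p of 0.0286, the lowest that 4 against 4 libraries can give, and an adjusted p of 0.0457. The 8 ratios share the same denominator, which was only 17 to 91 counts in the hematogenous libraries and 161 to 1178 in the lymphatic ones, so they are not independent of each other. The two-sided p is the smaller tail doubled, so 3 against 4 libraries cannot go below 0.0571, and no ratio passed when a library was left out. The differences of these 5 members then ranged from -2.91 to -1.67.

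**Figure D3:**
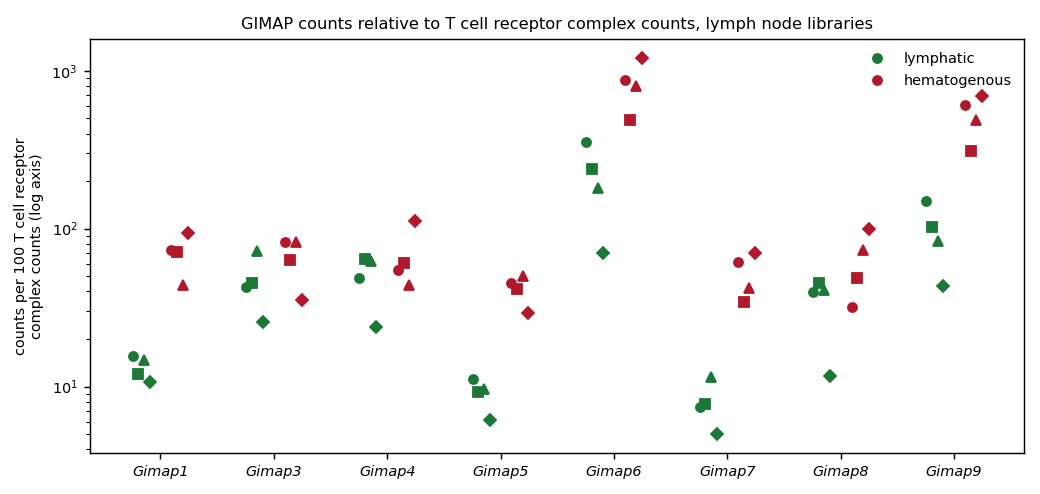
Counts of each GIMAP gene per 100 counts of the 6 T cell receptor complex genes (vertical log axis) in the 4 lymphatic and 4 hematogenous libraries, 1 point per library. The routes overlap for Gimap3, Gimap4 and Gimap8, and the hematogenous points lie above the lymphatic points for the other 5 genes.

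Lymphatic 4 stood apart from the other lymphatic libraries over the genes at large, and not only in the T cell genes. A chi-square comparing counts gene by gene was 136 to 240 per degree of freedom between lymphatic 4 and each of the others. It was 12.6 to 49.8 among lymphatic 1 to 3. The receptor complex level of lymphatic 4 was 3.91 times the mean of lymphatic 1 to 3. The same ratio was 3.00 for Gimap1, 2.44 for Gimap5, 2.12 for Gimap7, 1.80 for Gimap3, 1.63 for Gimap9, 1.56 for Gimap4, 1.14 for Gimap6 and 1.09 for Gimap8. All 8 members were above the mean of the other lymphatic libraries there, and all by less than the receptor complex. Without this library Gimap3, Gimap4 and Gimap8 were still called higher in lymphatic than in hematogenous libraries.

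Markers of other cells that a lymph node sort could hold were also measured. Calls are read beside 13.4% of tested genes higher and 13% lower than in culture with lymphatic spread, and 13.9% and 13.9% with hematogenous spread. Of 12 NK cell markers 2 were tested, and the list summed to 18.7 to 23.1 CPM in culture, 3.04 to 16.5 CPM with lymphatic spread and 1.52 to 3.36 CPM with hematogenous spread, with Ncr1 at 0 in culture and hematogenous libraries. The culture sum was nearly all Klrb1c, which averaged 20.1 CPM in culture, 0.737 after lymphatic and 0.222 after hematogenous spread. Fcer1g, also found in myeloid cells, went the other way, at 0.121, 1.78 and 1.06 CPM, and 7 of the 12 had no counts in culture. Of 10 endothelial markers 3 were tested. The 10 summed to 87.7 to 92.0 CPM in culture, 102 to 122 CPM with lymphatic spread and 146 to 174 CPM with hematogenous spread. Most of each sum was Pecam1, which averaged 75.6 CPM in culture, 98.6 after lymphatic and 153 after hematogenous spread. In the same order Egfl7 averaged 10.7, 12.2 and 6.60 CPM, and Cdh5 1.89, 1.52 and 3.81 CPM. Tie1, Emcn and Prox1 had no counts in either kind of node library. Of 13 macrophage and monocyte markers 6 were tested, with 4 called higher and 2 lower than in culture by either route. Those lower were Csf1r, which averaged 8.52 CPM in culture, 3.75 after lymphatic and 1.49 after hematogenous spread, and Itgam, at 4.87, 0.533 and 0.808 CPM. The 13 markers summed to 15.1 to 20.3 CPM in culture, 29.4 to 84.3 CPM with lymphatic spread and 19.9 to 28.8 CPM with hematogenous spread. Lyz2 and the C1q genes among them had no counts in culture. Their part in the GIMAP values was not tested. The neutrophil and stromal lists stayed at or below 2.00 and 0.804 CPM in every library.

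The GIMAP genes lie together on mouse chromosome 6, in the order Gimap8, Gimap9, Gimap4, Gimap6, Gimap7, Gimap1, Gimap5 and Gimap3. Neighbouring genes had unlike levels, since Gimap9 and Gimap6, present in culture, enclose Gimap4, which had 2 counts there. On the Gimap8 side, the zinc finger genes Repin1 and Zfp775 were not called in lymphatic against culture (-0.25 and -0.20, edgeR adjusted p = 0.492 and 0.525). Repin1 was lower in hematogenous libraries than in culture (-0.78, edgeR adjusted p = 0.0339). On the Gimap3 side, Tmem176b, a membrane protein gene of myeloid and some lymphoid cells, was higher in lymphatic libraries than in culture by 1.82 (edgeR adjusted p = 0.00121) and than in hematogenous libraries by 1.33 (edgeR adjusted p = 0.00951). Its neighbour Tmem176a was higher in lymphatic libraries than in culture by 1.86 (edgeR adjusted p = 0.0191), and its change between the routes was 1.06 (edgeR adjusted p = 0.132). The other 6 flanking genes had between 0 and 5 counts over all 12 libraries.

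**Figure D4:**
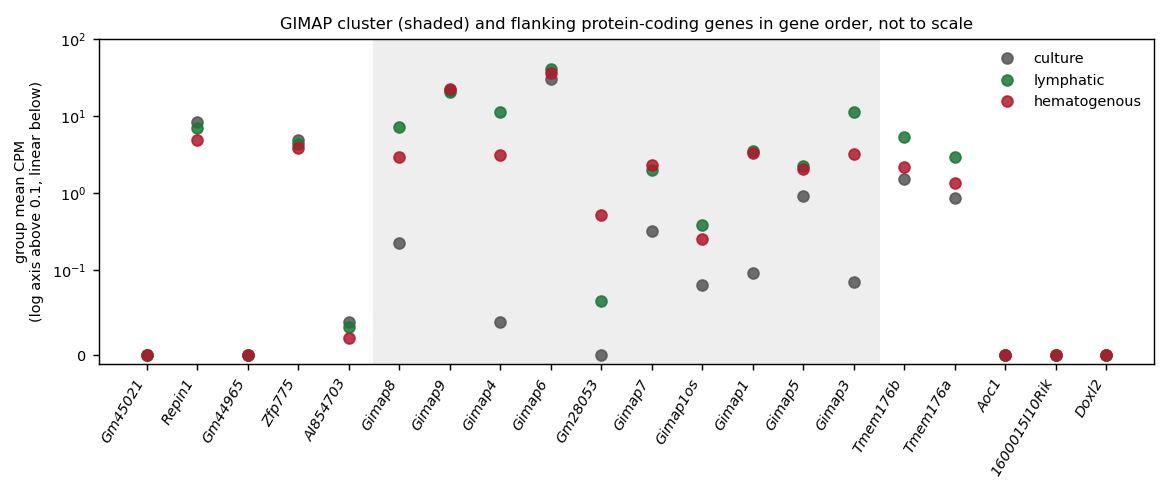
Group mean CPM (vertical axis, logarithmic above 0.1 and linear below) of the GIMAP cluster, shaded, and the 5 nearest protein-coding genes on each side, in gene order and not to scale. Gimap9 and Gimap6 are high in all 3 groups on both sides of Gimap4, whose culture mean is close to 0.

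Other GTPase families gave a comparison. Of 18 interferon-inducible GBP and IRG GTPases, which attack the vacuoles of intracellular pathogens, 12 were tested. Of these, 11 were called higher and 0 lower in lymphatic libraries than in culture, with a median change of 3.73. In hematogenous libraries 7 were called higher and 1, Gbp2, lower than in culture (-1.90 ± 0.32, edgeR adjusted p = 0.000452), with a median of 1.82. Between the routes 10 were called higher and 0 lower in lymphatic libraries, with a median of 1.63, where the GIMAP median was 0.13. Tgtp2 was higher there by 3.59 ± 0.51 (edgeR adjusted p = 0.000344). Of 25 type I interferon response genes 24 were called higher in lymphatic libraries than in culture and 24 than in hematogenous libraries. In hematogenous libraries 17 of the 25 were called higher than in culture. Over all tested genes, 13.4% were called higher in lymphatic and 13.9% in hematogenous libraries than in culture, and 11.4% between the routes. The shares called lower were 13%, 13.9% and 10.9%. No difference between these lists and the GIMAP genes was tested.

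Genes of the processes in which GIMAP proteins act were counted in the same way. Of 15 ATG8 and autophagy genes 14 were tested, with 2 called higher and 2 lower in lymphatic libraries than in culture, 0 higher and 4 lower in hematogenous libraries than in culture, and 0 called between the routes. With lymphatic spread these shares are near the 13.4% and 13% of all tested genes called higher and lower than in culture. With hematogenous spread 13.9% of all tested genes were called higher and 13.9% lower, and between the routes 11.4% and 10.9%. Gabarapl2, the partner of Gimap6, had a mean of 22.9 CPM in culture, 25.6 after lymphatic and 20.5 after hematogenous spread and passed no test. Optn, an autophagy receptor, was lower than in culture in lymphatic libraries (-2.39 ± 0.22, edgeR adjusted p = 3.19e-06) and in hematogenous libraries (-2.11 ± 0.22, edgeR adjusted p = 6.77e-06). It was not called between the routes (-0.28 ± 0.22, edgeR adjusted p = 0.377). Of 18 genes of the BCL2 family, which sets the threshold of apoptosis, 12 were tested. Lymphatic libraries had 2 higher and 3 lower than culture, and hematogenous libraries 5 higher and 2 lower than culture. Between the routes 1 was higher and 3 lower in lymphatic libraries. The shares of all tested genes given for the autophagy list apply here as well. Bcl2, the survival gene, averaged 45.3 CPM in culture, 31.5 after lymphatic and 60.8 after hematogenous spread. It was lower in lymphatic than in hematogenous libraries (-0.95 ± 0.10, edgeR adjusted p = 5.64e-05). Bmf, which promotes apoptosis, was lower there (-1.98 ± 0.30, edgeR adjusted p = 0.000584).

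Lymphocyte quiescence and homing genes are read beside the same background, 13.4% and 13% of tested genes higher and lower with lymphatic spread, 13.9% and 13.9% with hematogenous spread, and 11.4% and 10.9% between the routes. Of 18 tested of 19, 6 were called higher and 8 lower in lymphatic libraries than in culture, and 7 higher and 6 lower in hematogenous libraries than in culture. Slfn2, which keeps T cells quiescent, averaged 0.319 CPM in culture, 54.8 after lymphatic and 19.0 after hematogenous spread. It was higher in lymphatic than in hematogenous libraries by 1.51 ± 0.35 (edgeR adjusted p = 0.00822). Klf2, a factor that promotes homing receptors, was called higher than in culture by both routes. The change was 3.61 ± 0.38 in hematogenous libraries (edgeR adjusted p = 6.90e-06) and 2.97 ± 0.37 in lymphatic libraries (edgeR adjusted p = 5.51e-05). Klf2 was not called between the routes (-0.63 ± 0.32, edgeR adjusted p = 0.165). Between the routes 3 genes of the list were higher and 5 lower in lymphatic libraries, among them Btg1 (-1.10 ± 0.14, edgeR adjusted p = 0.000165).

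Genes whose level followed Gimap4 were ranked among 10897 genes by Pearson r of log2 CPM over the 12 libraries, which share their group and depth, so r is a description. The closest were Arl4c (0.986), Lcp2 (0.981), Blk (0.978), Grap2 (0.978) and Cd8a (0.977). Lcp2 and Grap2 encode adaptors of T cell receptor signalling, Cd8a a T cell coreceptor, and Blk a B cell kinase. Among members, Gimap8 ranked 28 (0.957), Gimap3 43 (0.950) and Gimap1 110 (0.926), whereas Gimap5 ranked 1375 (0.649) and Gimap9 6204 (-0.14). Trac ranked 38 (0.952), Cd3g 85 (0.932) and Trbc2 111 (0.926). After centring on the group mean, over the 8 node libraries, the closest were Scarf1 (0.943), Rasgef1b (0.938), Lef1 (0.933), Cxcr5 (0.920) and Cfap298 (0.914). In that measure r to Gimap4 was 0.815 for Gimap1, 0.797 for Gimap7, 0.483 for Gimap3, 0.913 for Cd3g and 0.415 for Trbc2.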

How the data were processed

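Poly(A) RNA of 12 mouse libraries was sequenced as stranded single-end reads, per the labels' protocols. FastQC 0.11.9, Trimmomatic 0.39, HISAT2 2.1.0, HTSeq 2.0.2 and the build GRCm39 are named in the submitters' processing notes. Each file, as deposited by the authors, lists raw read counts by Ensembl gene ID. Symbols (found for 91.8% of IDs) came from a reference table. Exonic lengths and gene order came from GENCODE M21 and promoters from RefSeq, both on GRCm38, so no gene positions are mixed with the counts. Reads that HTSeq placed on no gene, 30.3% to 36.5% per library, were left out.

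Counts were filtered with filterByExpr, scaled with TMM and fitted on group over all 12 libraries in edgeR 4.0.16 (R 4.3.3), with 9 residual degrees of freedom and a common dispersion of 0.0457. The tests are two-sided with an adjusted p threshold of 0.05. SE was taken from the log2 change and its F value and is approximate. DESeq2 1.42.0, limma 3.58.1, 2 other filters, other scaling, fits of 2 groups, a replicate block and leaving out each library were alternatives. Permutation tests used log2 ratios with 0.5 added to each count. Intervals of count ratios are exact at 95% and, like the floor of 3 counts, cover counting error only, since molecular identifiers were not used here. The scripts were tested on simulated data.

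The members, lists and tests were chosen with earlier results of these data known. Named genes are the 8 members, the receptor complex, Myc, 5 flanking genes per side, up to 3 genes per list called in a comparison with the smallest p, and the 5 genes most like Gimap4 in each of 2 measures. Gabarapl2, Il7r, Klrb1c, Fcer1g and markers at 0 were named after their values were seen. Same-numbered libraries did not deviate together (r from -0.18 to 0.09 over 12 pairs), so the numbers were not taken as pairs. No 2 libraries agreed within sampling noise. The 50-base words of Gimap3 and Gimap5 overlapped (7.52% and 4.53% of their words), so reads there cannot be placed on a single gene. Gimap1, Gimap5 and Gimap7 share 6.44%, 3.69% and 3.48% of their exonic bases with the read-through gene Gm28053, where a read is ambiguous.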

Additional observations from a re-analysis of the deposited data

Results flagged for a closer look

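A highest or lowest library was looked for in each group of 4, over 36 groups of values, and 4 groups had a library far from the rest, where chance flags about 1 in 20. Gimap3 was at 0.345 CPM in culture 4 and had no counts in the other culture libraries. Gimap4 was at 0.155 CPM in culture 1 and had no counts in the others. Both rest on 3 counts or fewer. With a single library above 0 beside zeros, the gap is the whole range whatever the value, so the rate of 1 in 20 does not apply to these. In culture, Trac with 6 counts in culture 1 and Cd3g with 1 count in culture 3 had the same form and are not among the 4. The flags therefore do not cover every group of this form. Trac was at 12.1 CPM in lymphatic 4, where the other lymphatic libraries had 2.77 to 4.09 CPM. Cd3d was at 10.04 CPM in lymphatic 4, where the others had 1.49 to 2.71 CPM.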

How the results depend on the processing

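Leaving out each library put 5 to 7 members past the threshold as higher in lymphatic libraries than in culture, and 5 to 6 in hematogenous libraries, Gimap4 included. Over all tested genes 1317 to 2440 and 1545 to 2995 passed as higher. Nothing is drawn from these counts against culture, since only Gimap6 and Gimap9 carry a test there. Between the routes 1 to 3 members were called higher in lymphatic libraries, Gimap4 included, beside 930 to 2080 of all tested genes. The lowest member count between the routes came without hematogenous 1, and without lymphatic 4 Gimap9 was added as lower. The count of members whose ratio to the receptor complex differed was 5, also with Trbc2 and Cd3g alone or with 0.1 or 2 added. These settings all keep receptor complex genes as the denominator, so the count still restates the receptor complex difference and is no separate result. It was 0 without each library, since a two-sided p of 3 against 4 libraries, the smaller tail doubled, cannot go below 0.0571. The differences kept their sign. Gimap4 kept its call between the routes under all 19 alternatives. The change of Gimap1 between the routes turned to -0.078 with limma-voom and -0.090 with the replicate block, and ranged from -0.53 to 0.45 without each library. Without each library, the change between the routes ranged from -0.39 to 0.36 for Gimap5 and from -0.59 to 0.046 for Gimap7, and that of Gimap9 between hematogenous and culture from -0.0035 to 0.080. None of these passed the threshold. The changes of Gimap5 against culture, given without a test, were 1.37 and 1.30 with no filter. They were 1.35 in lymphatic libraries with DESeq2 and 1.33 in hematogenous libraries with the 2 groups alone. Gimap6 passed in hematogenous libraries with the 2 groups alone (adjusted p = 0.0496). The cause was not tested. Without culture 1, Gimap4 had no counts in culture, and its fitted values of 10.14 and 8.23 are no bounds.

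With the replicate block, 3 members were called between the routes, as without it, and the numbers did not pair the libraries. Over all genes, fits of the 2 groups alone called 3150 higher and 3194 lower in hematogenous against culture, where the fit of all libraries called 1880 and 1880, and 910 and 824 between the routes, where it called 1542 and 1470. Without lymphatic 4 the first of these was 2995 and 2935 and the second 2080 and 2253, and without hematogenous 1 the second was 930 and 1072. Depth limits the culture values of Gimap1, Gimap3, Gimap4, Gimap7 and Gimap8, which rest on 2 to 11 counts.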

Other observations

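Within the cluster, 2 further transcripts were too low to be tested. Gm28053, a read-through gene that joins parts of Gimap7, Gimap1 and Gimap5, had 23 counts over all libraries, with a mean of 0 CPM in culture, 0.064 after lymphatic and 0.522 after hematogenous spread. Gimap1os, on the strand opposite Gimap1, had 41 counts over all libraries, with means of 0.082, 0.387 and 0.251 CPM.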
